A study of Mus musculus with 48 samples.

Results

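The synaptic vesicle release machinery was followed as 40 genes, taken by symbol from the 55357 genes of the count table and grouped by role into synapsins, vesicle membrane proteins, vesicular glutamate transporters, SNARE proteins and their disassembly factors, calcium sensors and complexins, Rab3 proteins and their effector, active zone proteins and endocytosis proteins. RNA came from the dorsal dentate gyrus of 24 C57BL/6J mice, with 1 library from the injected side, the epileptogenic zone (EZ), and 1 from the opposite side, the peri-ictal zone (PIZ), of each mouse. The 12 groups of 4 libraries were kainate and saline in each zone at day 3, day 7 and day 14 after the injection, with 2 male and 2 female mice in each group. Saline-injected mice had the same needle track and injection into 1 hippocampus, and the labels name no engineered allele in any group. Kainate is an agonist of a class of glutamate receptors, and a small dose in the hippocampus starts status epilepticus. Per the methods, the kainate-injected mice that were kept each had at least 1 behavioural seizure with forelimb clonus or more soon after injection, scored by eye with no EEG. The series record gives the age as 6 to 8 weeks, while the methods give an older age. The tissue was dissected as a block and sequenced in bulk, so fewer cells of a type and less RNA per cell cannot be told apart.

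Neurotransmitter is stored in synaptic vesicles, which are held in clusters by synapsins, docked at the active zone by RIM, Munc13, Bassoon, Piccolo and ELKS proteins, and fused with the plasma membrane by the SNARE proteins SNAP-25, syntaxin and synaptobrevin. Synaptotagmins sense calcium and, with complexins, set the moment of fusion, after which NSF and its adaptors take the SNARE complex apart and dynamin, amphiphysin, synaptojanin and endophilin recover the membrane. In the dentate gyrus these proteins serve granule cells, whose mossy fibres release glutamate in the hilus and CA3, as well as hilar neurons, interneurons and the terminals of incoming axons, whose own mRNA mostly lies in cell bodies elsewhere.

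Each library held 17762656 to 25712975 counts (median 22108562), and every library of a group differed from its replicates by more than sampling noise. All 40 genes passed the filter for low counts, as did 21390 genes in all. Levels below are CPM, read counts scaled to a common library size, after TMM scaling, a factor per library that sets most genes level across libraries, and a gene is called lower or higher where the edgeR adjusted p is under 0.01 and the change exceeds 1.5-fold. Log2 fold changes are given ± SE, and levels ± SD. The SE and p use a spread estimated per gene over all 12 groups, so they do not measure the spread of the mice compared. Granule cell markers were present in the saline libraries (C1ql2 at 213 and Prox1 at 101 TPM, a level scaled for gene length and library size). So were CA3 markers (Bok at 98.9, Cpne4 at 79.0 and Iyd at 10.1) and CA1 markers (among them Fibcd1 at 69.2 and Mpped1 at 31.3). Whether these genes mark only those cells in this tissue was not tested. Some libraries stood apart. The EZ library of kainate mouse 27 at day 14 had a median of -2.95 on the log2 scale for 8 granule cell markers against the saline mean, and 2.88 for 10 microglia markers, while the other 3 mice of its group lay between -0.73 and -0.03 for granule cell markers and between 0.29 and 0.79 for microglia. The PIZ libraries of saline mouse 39 at day 14, saline mouse 18 at day 3, kainate mouse 30 at day 3 and kainate mouse 21 at day 7 were the lowest of their groups in granule cell markers (-0.91, -0.62, -1.37 and -1.45).

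In the 24 saline libraries, which are both sides of 12 mice and so not all independent, levels per length spread over nearly 3 orders of magnitude. Complexin 2 (Cplx2), a clamp and promoter of fusion, had the highest mean at 1424 ± 126 TPM (SD over the 24 libraries). The vesicular glutamate transporter VGLUT1 (Slc17a7) followed at 692 ± 83, and synaptobrevin 2 (Vamp2), SNAP-25 (Snap25) and synaptophysin (Syp) lay at 640 ± 54.3, 618 ± 80.6 and 542 ± 60.9. Within this run from Slc17a7 to Syp, the means of neighbours lay closer than the larger SD of the pair. The length used is that of all annotated exons of a gene, so ranks between genes depend on it. It was 4936 bases for Cplx2 and 10009 for Snap25. Without scaling for length these 2 genes were close, with mean log2 CPM of 10.96 and 10.755 in the EZ of saline mice at day 3. Munc13-1 (Unc13a), RIM1 (Rims1) and Piccolo (Pclo), large proteins of the active zone, had means of 92.1 ± 9.24, 57.1 ± 6.48 and 53.2 ± 5.67 TPM. Lowest were the calcium sensor Doc2a (9.68 ± 1.75), synapsin 3 (Syn3, 2.94 ± 0.80) and VGLUT2 (Slc17a6, 1.57 ± 1.47), the transporter of thalamic and other subcortical glutamate neurons. The library with the highest Slc17a6 level was that of saline mouse 29 in the PIZ at day 3, with 14.9 CPM against 1.81 to 1.82 in the other 3 libraries of its group.

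**Figure D1:**
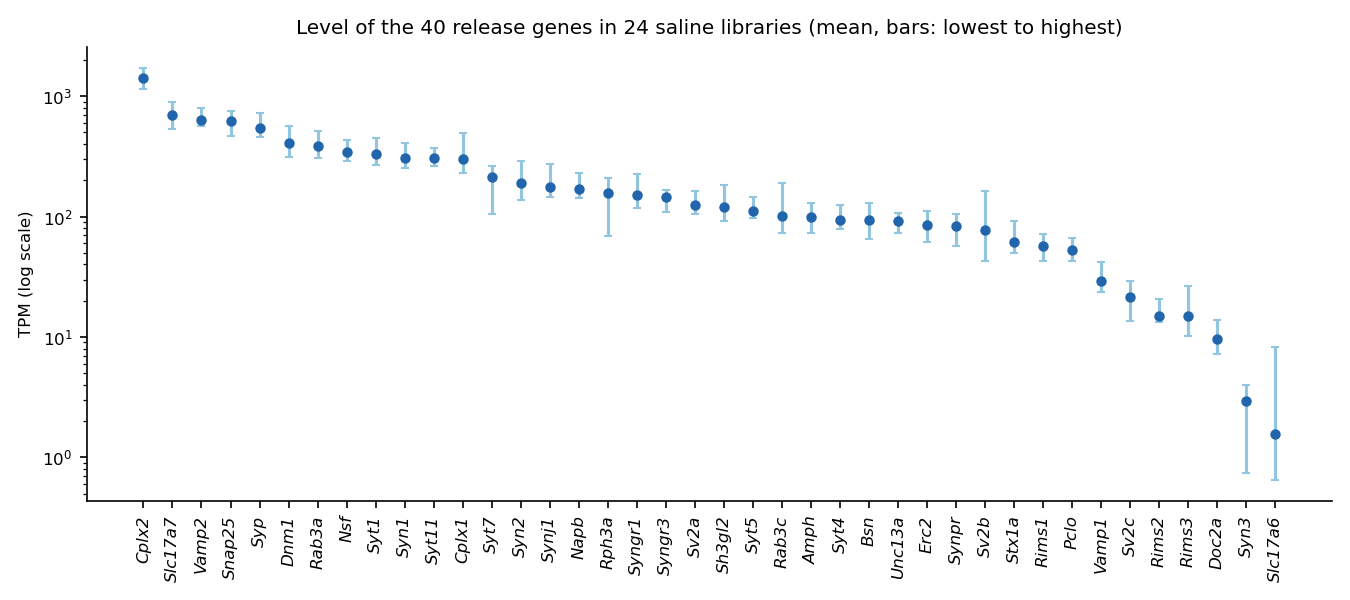
Level of each of the 40 genes in TPM (log axis) in the 24 saline libraries of both zones, as the mean with bars from the lowest to the highest library. Cplx2 is highest at 1424 TPM and Slc17a6 is lowest at 1.57 TPM.

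Kainate lowered most of these genes in the EZ in the first week. At day 3, 28 of the 40 genes were called lower and 1 higher, whereas 8.61% of all genes tested were called lower and 16.1% higher. At day 7, 29 were called lower and 0 higher, against 11.9% and 20.6% of all genes. No member rose at day 7 in any of the 16 alternative analyses, and 0 members had an unadjusted p under 0.05 in that direction. The middle log2 fold change of the 40 genes (their median) stood at -0.82 on day 3 and -1.03 on day 7, compared with 0.03 and 0.01 over all genes. All 4 kainate libraries lay below all 4 saline libraries for 32 of the 40 genes at each of these days, which held for 18.5% of all genes at day 3 and for 20.1% at day 7. Of the 40 genes, 25 were called lower at both days, 3 at day 3 and not at day 7 (Rph3a, Synpr and Syt7) and 4 at day 7 and not at day 3 (Doc2a, Erc2, Napb and Syt4). This split by day moved with the processing: limma-voom called Rph3a, Synpr and Syt7 lower at day 7 too and Doc2a, Erc2 and Napb at day 3 too, the first 3 were also called at day 7 without kainate mouse 23, and their day 3 calls were lost with scaling by library size only and without any of mice 29, 38, 41 and 42. Of the 7 genes, only Syt4 had a change of effect from day 3 to day 7 at an unadjusted p under 0.05, and its adjusted p was 0.35. The other 8 were called lower at neither day, and these were Slc17a6, Slc17a7, Sv2c, Syn3, Syngr1, Syt11, Syt5 and Unc13a.

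Which members were called moved most under 3 settings. With only the 8 libraries of the comparison in the model, 13 members were called lower at day 7, and the 16 that lost the call were Syn1, Syn2, Syp, Syngr3, Sv2a, Vamp2, Nsf, Napb, Cplx2, Rab3a, Rims2, Bsn, Pclo, Erc2, Dnm1 and Amph. The same model lost Syn1, Synpr, Syngr3, Sv2a and Vamp1 at day 3. Leaving out kainate mouse 38 took the day 3 count to 17, without Syn1, Syn2, Syp, Synpr, Syngr3, Sv2a, Vamp2, Nsf, Syt7, Cplx2 and Rph3a. Scaling by library size only lost 9 of the day 3 calls, those of Syn1, Synpr, Syngr3, Sv2a, Vamp2, Nsf, Syt7, Cplx2 and Rph3a. In the other direction, limma-voom added Syn3, Synpr, Slc17a7, Syt7, Rph3a and Unc13a to the day 7 calls. The calls in the descriptions by role are those of edgeR over all libraries.

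**Figure D2:**
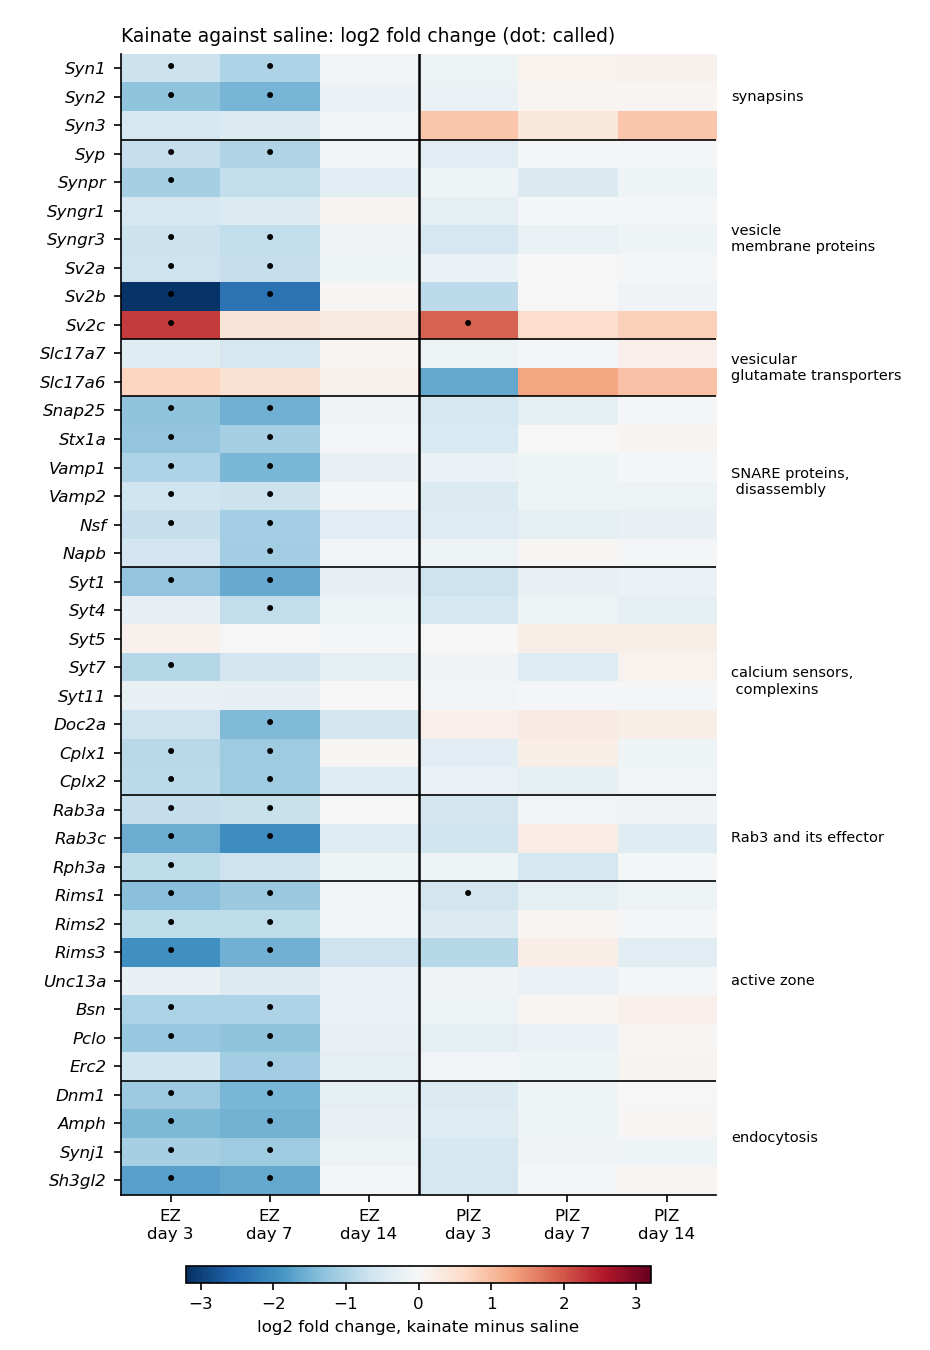
Log2 fold change of kainate against saline for the 40 genes (rows, grouped by role) in each zone and day (columns), with blue for lower and red for higher in kainate and a dot where the gene was called. Blue with dots fills EZ day 3 and EZ day 7, Sv2c is red with a dot at day 3 in both zones, and EZ day 14, PIZ day 7 and PIZ day 14 hold no dots.

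Synapsins are phosphoproteins that tether vesicles to each other and to actin. Of the 3 synapsin genes, Syn1 and Syn2 were called lower at both days and Syn3 at neither. Syn2 (ENSMUSG00000009394.14, GRCm39 chr6:115111825-115261708) measured 252, 134, 193 and 393 CPM in the EZ of kainate mice 30, 38, 42 and 44 at day 3, and 688, 515, 545 and 608 in saline mice 18, 29, 37 and 41. Every kainate library lay below every saline library, and the log2 fold change was -1.28 ± 0.36 (adjusted p = 0.00321), a call lost without saline mouse 18 or kainate mouse 38 or 42 (adjusted p between 0.011 and 0.0253). At day 7 its levels were 102, 341, 343 and 62.4 CPM in kainate mice 21, 23, 26 and 35, and 631, 519.6, 599.5 and 623 in saline mice 20, 33, 34 and 89. The groups again did not overlap (log2 fold change -1.49 ± 0.36, adjusted p = 5.66e-04, or 0.0426 with only the groups compared in the model), and mice 21 and 35 were lower than mice 23 and 26 by more than 3-fold. The SD of log2 CPM was 1.25 in these kainate libraries and 0.13 in the saline ones, which the shared spread behind the SE does not show. Syn1 (ENSMUSG00000037217.16, GRCm39 chrX:20726750-20787397) measured 250.2, 140.3, 203 and 298 CPM in the same kainate libraries at day 3 and 422, 316, 332 and 367 in saline, and 112, 259.9, 269 and 105 against 396, 324, 368 and 401 at day 7. Its groups did not overlap at either day, and the decrease was smaller, with log2 fold changes of -0.69 ± 0.21 (adjusted p = 0.00793) and -0.995 ± 0.22 (adjusted p = 1.70e-04). The day 3 call of Syn1 was lost under several settings, among them scaling by library size only, where its log2 fold change was -0.56. Syn3, expressed at a low level, had log2 fold changes of -0.57 ± 0.43 (adjusted p = 0.285) and -0.44 ± 0.43 (adjusted p = 0.397).

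The vesicle membrane proteins held both the deepest fall and the sole rise. SV2 proteins are glycoproteins of the vesicle membrane with the fold of a transporter, they bind synaptotagmin, and SV2A is the target of the antiseizure drug levetiracetam. Sv2b (ENSMUSG00000053025.14, GRCm39 chr7:74761975-74959131) measured 22.9, 17.6, 29.4 and 64.4 CPM in the EZ of kainate mice 30, 38, 42 and 44 at day 3, against 417, 215, 281 and 271 in saline mice. The highest kainate library lay more than 3-fold below the lowest saline library, and the fit gave an 8.82-fold lower level (log2 fold change -3.14 ± 0.42, adjusted p = 4.21e-07). At day 7 Sv2b measured 75.8, 83.9, 62.0 and 28.7 CPM in kainate mice 21, 23, 26 and 35, and 439.8, 195, 289.7 and 373 in saline mice. The groups did not overlap (log2 fold change -2.37 ± 0.41, adjusted p = 7.19e-06), and, unlike for Syn2, mice 23 and 26 were here no higher than 83.9 CPM.

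Sv2c (ENSMUSG00000051111.17, GRCm39 chr13:96091102-96269085), which in the adult brain is best known from the basal ganglia, went the other way at day 3. It measured 380.5, 205, 286 and 380.3 CPM in the EZ of the 4 kainate mice and 45.9, 82.5, 71.1 and 66.2 in saline mice, so that all kainate libraries were higher. The increase was 4.71-fold (log2 fold change 2.24 ± 0.34, adjusted p = 2.15e-06). It was called under each of the 14 alternatives to this value. At day 7 the levels were 28.96, 128, 105 and 45.5 CPM in kainate mice 21, 23, 26 and 35 and 42.8, 76.2, 61.9 and 51.1 in saline mice. Mice 23 and 26 lay above all saline libraries while mice 21 and 35 did not, and the difference did not pass the test (log2 fold change 0.40 ± 0.32, adjusted p = 0.294). The kainate effect on Sv2c was smaller at day 7 than at day 3 by 1.83 on the log2 scale (SE 0.46), with an adjusted p of 0.0495, above the threshold used here. Sv2a was called lower at both days with smaller values than Sv2b (log2 fold changes -0.67 ± 0.13, and -0.73 ± 0.13, adjusted p = 8.09e-05 and 1.69e-05). Per length, Sv2b stood at 69.1 ± 19.9 TPM and Sv2c at 23.5 ± 5.48 TPM in the EZ of saline mice at day 3 (SD, n = 4). In kainate mice they stood at 8.65 ± 5.46 and 122 ± 32.5, and the lowest Sv2c library (80.4 TPM) lay above the highest Sv2b library (16.6 TPM), an order opposite to that in saline.

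Of the remaining vesicle membrane proteins, synaptophysin (Syp) and synaptogyrin 3 (Syngr3), which span the membrane and are widely used as markers of terminals, were called lower at both days. Their log2 fold changes were -0.75 and -0.97 for Syp and -0.68 and -0.78 for Syngr3. Synaptoporin (Synpr), a relative of synaptophysin that is abundant in mossy fibres, was called lower at day 3 (-1.06 ± 0.32, adjusted p = 0.00627) and had a value of -0.78 ± 0.32 (adjusted p = 0.0341) at day 7. Synaptogyrin 1 (Syngr1) passed the adjusted p at both days with log2 fold changes of -0.54 and -0.44, which are short of the 1.5-fold minimum.

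The 250 bases upstream of the start are printed for 4 members, Sv2b and Sv2c because these paralogs moved in opposite directions at day 3, and Syn1 and Sh3gl2 because they are the members in which a cAMP response element was found. Sequences are from the RefSeq table on build GRCm38.p6, which is not the build of the gene positions above, and of the 40 genes 31 were found in it. Capitals mark the cAMP response element TGACGTCA in Syn1 and Sh3gl2, and the GC box GGGCGG, on either strand, in Sv2c. The Sv2b window chr7:75309263-75309512, minus strand, is the one farthest upstream of 4 starts in the table and had 48.8% G and C. The others had 1 start each, namely Sv2c (chr13:96132578-96132827, minus strand), Syn1 (chrX:20920919-20921168, minus strand) and Sh3gl2 (chr4:85205206-85205455, plus strand), with 70.8%, 68.0% and 67.6% G and C. All are written from 5′ to 3′ on the strand of the gene.
Sv2b: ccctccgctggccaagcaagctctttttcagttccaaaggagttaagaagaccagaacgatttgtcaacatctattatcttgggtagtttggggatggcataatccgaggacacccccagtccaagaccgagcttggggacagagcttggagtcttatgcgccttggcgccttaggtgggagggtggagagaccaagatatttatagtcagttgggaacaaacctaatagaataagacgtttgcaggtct
Sv2c: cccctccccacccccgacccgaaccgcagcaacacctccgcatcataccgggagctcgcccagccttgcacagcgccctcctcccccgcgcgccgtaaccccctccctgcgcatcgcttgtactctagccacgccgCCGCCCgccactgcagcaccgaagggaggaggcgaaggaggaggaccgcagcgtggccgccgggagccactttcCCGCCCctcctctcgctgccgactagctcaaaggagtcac
Syn1: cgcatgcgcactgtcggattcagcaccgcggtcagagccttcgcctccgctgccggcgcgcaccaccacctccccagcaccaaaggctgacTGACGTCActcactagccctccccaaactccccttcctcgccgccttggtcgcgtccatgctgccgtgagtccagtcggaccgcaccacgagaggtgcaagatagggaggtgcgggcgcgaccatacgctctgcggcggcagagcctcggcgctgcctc
Sh3gl2: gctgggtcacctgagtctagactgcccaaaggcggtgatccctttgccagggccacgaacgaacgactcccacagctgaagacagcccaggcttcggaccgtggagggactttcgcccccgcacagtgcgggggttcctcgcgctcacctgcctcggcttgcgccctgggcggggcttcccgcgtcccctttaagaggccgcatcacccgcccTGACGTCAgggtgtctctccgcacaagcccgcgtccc
The cAMP response element was found in 1.55% of all 32851 promoter windows and in 2 of the 31 members matched, and the GC box in 32.7% of all windows and in 22 of the 31 members, Sh3gl2 among them. These are matches of letters, searched on both strands, and a member can have several windows (42 windows in all).

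VGLUT1, which fills vesicles with glutamate in granule and pyramidal cells, was not called at either day. Slc17a7 (ENSMUSG00000070570.6, GRCm39 chr7:44813305-44825644) measured 968, 605, 843 and 837 CPM in kainate mice 30, 38, 42 and 44 and 1288, 933, 965 and 1084 in saline mice at day 3 in the EZ. At day 7 it measured 467, 1282, 938 and 498 CPM in kainate mice 21, 23, 26 and 35 and 1299, 992, 1147 and 1161 in saline mice. The groups overlapped at both days, mice 21 and 35 were the lowest by far at day 7, and the log2 fold changes were -0.39 ± 0.19 (adjusted p = 0.0922) and -0.53 ± 0.19 (adjusted p = 0.0188). It was called lower at day 7 by limma-voom and without kainate mouse 23. Slc17a6 had log2 fold changes of 0.68 ± 0.49 and 0.49 ± 0.50 at levels no higher than 5.6 CPM in these EZ libraries, and neither passed the test.

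Among SNARE genes and their disassembly factors, 5 of 6 were called lower at day 3 and 6 of 6 at day 7, or 3 of 6 at day 3 without kainate mouse 38 and 3 of 6 at day 7 with only the groups compared. SNAP-25, a SNARE of the plasma membrane, showed it at high counts. Snap25 (ENSMUSG00000027273.14, GRCm39 chr2:136533580-136624362) measured 843, 476, 658 and 887 CPM in the EZ of kainate mice at day 3 and 2051, 1531, 1582 and 1796 in saline mice. At day 7 it measured 383, 902, 888 and 442 CPM in kainate mice and 1975, 1536, 1702 and 2323 in saline mice. All kainate libraries were lower at both days, with log2 fold changes of -1.28 ± 0.21 (adjusted p = 6.98e-06) and -1.53 ± 0.21 (adjusted p = 2.14e-07). Syntaxin 1A (Stx1a, ENSMUSG00000007207.11, GRCm39 chr5:135052139-135079963), the partner of SNAP-25 in the plasma membrane, measured 19.3, 18.7, 24.7 and 30.6 CPM in kainate mice and 67.5, 49.4, 49.9 and 55.8 in saline mice at day 3. Its day 7 levels were 20.9, 35.6, 33.5 and 20.8 against 66.7, 48.5, 58.4 and 57.9. No library crossed between groups, and the log2 fold changes were -1.25 ± 0.19 (adjusted p = 3.09e-06) and -1.06 ± 0.19 (adjusted p = 1.55e-05).

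Synaptobrevins are the SNAREs of the vesicle. Vamp1 (ENSMUSG00000030337.17, GRCm39 chr6:125192340-125222927), the less abundant form here, measured 46.0, 26.4, 33.3 and 67.2 CPM in kainate mice and 104, 74.4, 78.8 and 87.4 in saline mice at day 3, and 30.1, 34.1, 41.99 and 26.6 against 99.4, 79.1, 87.8 and 101 at day 7. At day 7 all 4 kainate mice were low, with little spread between them, and the log2 fold change was -1.47 ± 0.21 (adjusted p = 3.01e-07), compared with -0.995 ± 0.20 (adjusted p = 1.36e-04) at day 3. Vamp2, its abundant relative, was called lower with smaller log2 fold changes of -0.63 and -0.69. NSF, the ATPase that separates spent SNARE complexes, had values of -0.73 and -1.08, and its adaptor beta-SNAP (Napb) had -0.62 (adjusted p = 0.0219, not called) and -1.11 (adjusted p = 8.97e-05).

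Calcium sensors were divided. Synaptotagmin 1 (Syt1, ENSMUSG00000035864.15, GRCm39 chr10:108333505-108846856), the fast sensor of most forebrain synapses, measured 482, 308, 439.8 and 672 CPM in the EZ of kainate mice and 1294, 1017, 1138 and 1131 in saline mice at day 3. At day 7 the levels were 269, 617, 545 and 224 CPM against 1388, 1079, 1244 and 1342. The groups were far apart at both days (log2 fold changes -1.27 ± 0.24, and -1.61 ± 0.24, adjusted p = 4.55e-05 and 7.77e-07). Synaptotagmin 7 (Syt7), a slow sensor used in facilitation and recycling, was called lower at day 3 (-0.90 ± 0.26, adjusted p = 0.00423) and not at day 7 (-0.59 ± 0.26, adjusted p = 0.0481). Syt4 and Doc2a showed the reverse order, with values of -0.27 and -0.66 that missed the test at day 3 and calls of -0.78 (adjusted p = 9.20e-05) and -1.42 (adjusted p = 1.69e-04) at day 7. Syt5 stood at 0.13 ± 0.17 and 0.02 ± 0.17, and Syt11, a synaptotagmin that does not bind calcium, stood at -0.23 ± 0.08 and -0.27 ± 0.08, neither being called at either day.

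Complexins bind the assembled SNARE complex. Cplx1 (ENSMUSG00000033615.10, GRCm39 chr5:108666416-108697899) measured 178, 102, 142 and 220.2 CPM in kainate mice and 345, 246, 289.6 and 304 in saline mice at day 3, and 101, 170.5, 186 and 97.0 against 326, 259, 316 and 316 at day 7. All kainate libraries were lower, with log2 fold changes of -0.88 ± 0.21 (adjusted p = 5.73e-04) and -1.14 ± 0.21 (adjusted p = 1.73e-05). Cplx2, the highest of the 40 genes in TPM, had values of -0.83 ± 0.24 and -1.13 ± 0.24 and was called at both days, with the day 3 call also lost without mouse 18, 41 or 42.

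Rab3 GTPases ride on vesicles and recruit them to the active zone. Rab3c (ENSMUSG00000021700.11, GRCm39 chr13:110190721-110417530) measured 96.5, 60.5, 90.1 and 171 CPM in the EZ of kainate mice and 332, 271, 366 and 292 in saline mice at day 3. Its levels at day 7 were 61.8, 124, 106 and 28.6 CPM against 348, 296, 322 and 307. The groups did not overlap, and the log2 fold changes of -1.59 ± 0.33 (adjusted p = 1.36e-04) and -1.99 ± 0.33 (adjusted p = 4.31e-06) were larger in size than the -0.75 and -0.71 of Rab3a, which was also called at both days. Whether paralogs differed from each other was not tested. Rabphilin (Rph3a), an effector of Rab3, was called lower at day 3 (-0.82 ± 0.25, adjusted p = 0.00593) and had a value of -0.67 ± 0.25 (adjusted p = 0.0191) at day 7.

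At the active zone, 5 of 7 genes were called lower at day 3 and 6 of 7 at day 7, or 2 of 7 at day 7 with only the groups compared. RIM proteins tie calcium channels and Rab3 to the release site. Rims1 (ENSMUSG00000041670.20, GRCm39 chr1:22356133-22845686) measured 58.8, 44.3, 67.4 and 79.0 CPM in the EZ of kainate mice and 177, 145, 151 and 153 in saline mice at day 3. At day 7 it measured 50.2, 95.4, 93.4 and 54.0 CPM against 184, 134, 159.9 and 185. Every kainate library was lower at both days (log2 fold changes -1.33 ± 0.17, and -1.18 ± 0.17, adjusted p = 2.27e-07 and 4.46e-07). Rims2 fell by 0.81 on the log2 scale at each day (-0.81), and Rims3, a short RIM without the calcium-channel-recruiting parts of the long forms, had the second largest decrease of the 40 genes at day 3 (-1.96 ± 0.31) and a value of -1.54 ± 0.31 at day 7. The scaffolds Bassoon (Bsn) and Piccolo (Pclo) were called lower with values of -1.02 and -1.0 for Bsn and -1.21 and -1.29 for Pclo. ELKS2 (Erc2) had an edgeR call at day 7 (-1.11 ± 0.34, adjusted p = 0.00521) that was lost without any of mice 20, 21, 34, 35 and 89. Munc13-1 (Unc13a), the priming factor that opens syntaxin, was not called by edgeR, with -0.23 ± 0.13 (adjusted p = 0.15) and -0.45 ± 0.13 (adjusted p = 0.00369).

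All 4 endocytosis genes were called lower at both days, with the day 7 calls of Dnm1 and Amph lost when only the groups compared were in the model. Endophilin A1 (Sh3gl2, ENSMUSG00000028488.16, GRCm39 chr4:85123358-85557432), which bends the neck of the forming vesicle, measured 86.4, 63.5, 72.4 and 105 CPM in the EZ of kainate mice and 319, 232, 263 and 272 in saline mice at day 3. At day 7 it measured 54.8, 137, 119 and 54.1 CPM against 314, 234, 262 and 319. The highest kainate library stayed below the lowest saline library by more than 1.5-fold at both days (log2 fold changes -1.73 ± 0.25, and -1.63 ± 0.25, adjusted p = 1.26e-06 and 1.14e-06). The GTPase dynamin 1 (Dnm1) had -1.15 and -1.46, the scaffold amphiphysin (Amph) -1.43 and -1.51, and the lipid phosphatase synaptojanin 1 (Synj1) -1.06 and -1.13 at day 3 and day 7.

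**Figure D3:**
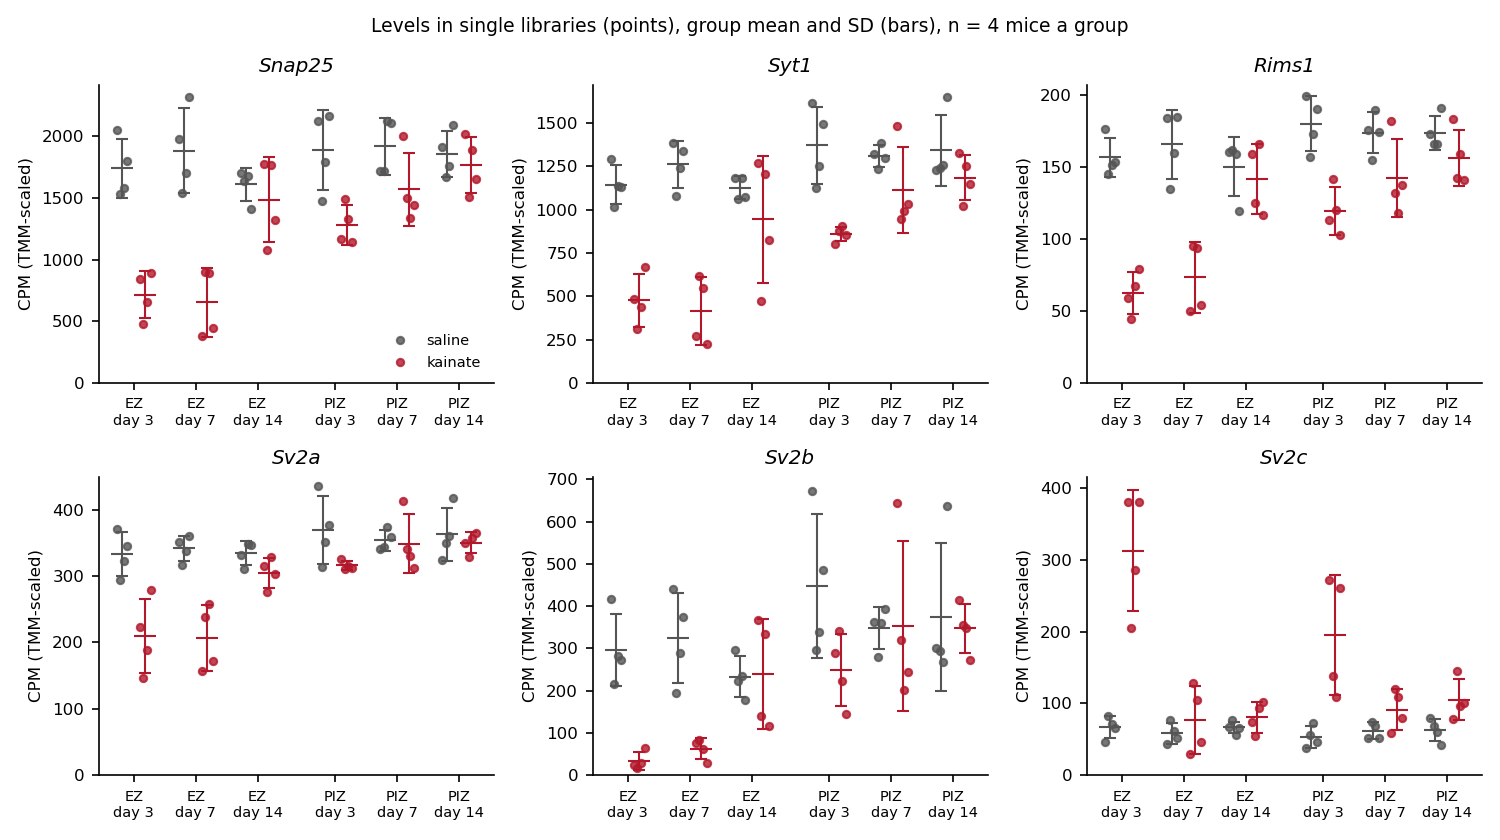
CPM in every library (points) of Snap25, Syt1, Rims1, Sv2a, Sv2b and Sv2c, with the group mean and SD as bars (n = 4 mice a group), saline in grey and kainate in red, by zone and day. The EZ kainate points of the first 5 genes lie below saline at day 3 and day 7 and overlap with saline at day 14, Sv2c is raised at day 3 in both zones, and the day 7 kainate points of Snap25 and Rims1 fall into a low and a high pair.

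Markers of cell types moved in the same EZ libraries. Over 11 neuronal genes that are not part of the vesicle, the median log2 fold change was -0.53 at day 3 and -0.61 at day 7, with 4 called lower and 1 higher (Nefm, a neurofilament) at day 3 and 6 lower and 0 higher at day 7. Of 8 granule cell markers 3 were called lower at each day (medians -1.06 and -1.07), and of 3 CA3 markers 2 were (medians -3.00 and -3.28). Of 10 microglia markers 8 were called higher at day 3 and 10 at day 7, and their summed level ranged from 1845 to 3351 CPM at day 3 and from 2326 to 8832 at day 7 in kainate libraries, compared with 628 to 1085 and 542 to 605 in saline libraries. The summed neuronal level ranged from 2190 to 3867 CPM at day 3 and from 1467 to 3581 at day 7 in kainate mice, compared with 3585 to 4176 and 3636 to 4261 in saline mice. None of the granule cell, CA3, neuronal or microglia markers was at or under 3 counts in all 4 libraries of a group, although the CA3 marker Iyd went down to 1 count in the lowest library of the series. The median of the 40 genes against the saline mean was -0.50 and -0.60 on the log2 scale in the day 7 libraries of mice 23 and 26, where the granule cell median was 0.05 and -0.42, and -1.66 and -1.74 in those of mice 21 and 35, where the granule cell median was -3.39 and -3.53. At day 3 it was -0.66, -1.35, -0.88 and -0.52 in mice 30, 38, 42 and 44, where the granule cell median was -1.62, -2.44, -1.21 and -1.27. Mouse 38 was lowest in both, and the other 3 mice were not in the same order in the pair of measures. Of the other lists, 4 of 7 interneuron and 2 of 4 CA1 markers were called lower at day 3 and 3 and 4 at day 7, and 3 of 9 oligodendrocyte and 3 of 7 endothelial markers were called higher at day 3 and 5 and 3 at day 7. Astrocyte markers went both ways at day 3, with 3 of 9 called higher and 2 lower (median -0.01), and 5 were higher and 0 lower at day 7. All 4 meningeal and fibroblast markers were called higher at both days (medians 2.27 and 2.504), and so were 4 of 5 immediate early genes at day 3 and 5 of 5 at day 7 (medians 1.97 and 1.95). The lists for hilar mossy cells (0 higher and 1 lower of 3, then 1 and 1), immature neurons (0 and 1 of 6, then 0 and 0), thalamus (1 and 1 of 5, then 2 and 1) and choroid plexus (0 and 1 of 3 tested at each day) were too short for a share to be read. Of all genes, 8.61% were called lower and 16.1% higher at day 3, and 11.9% and 20.6% at day 7. The part of cell composition in the decrease was not tested.

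**Figure D4:**
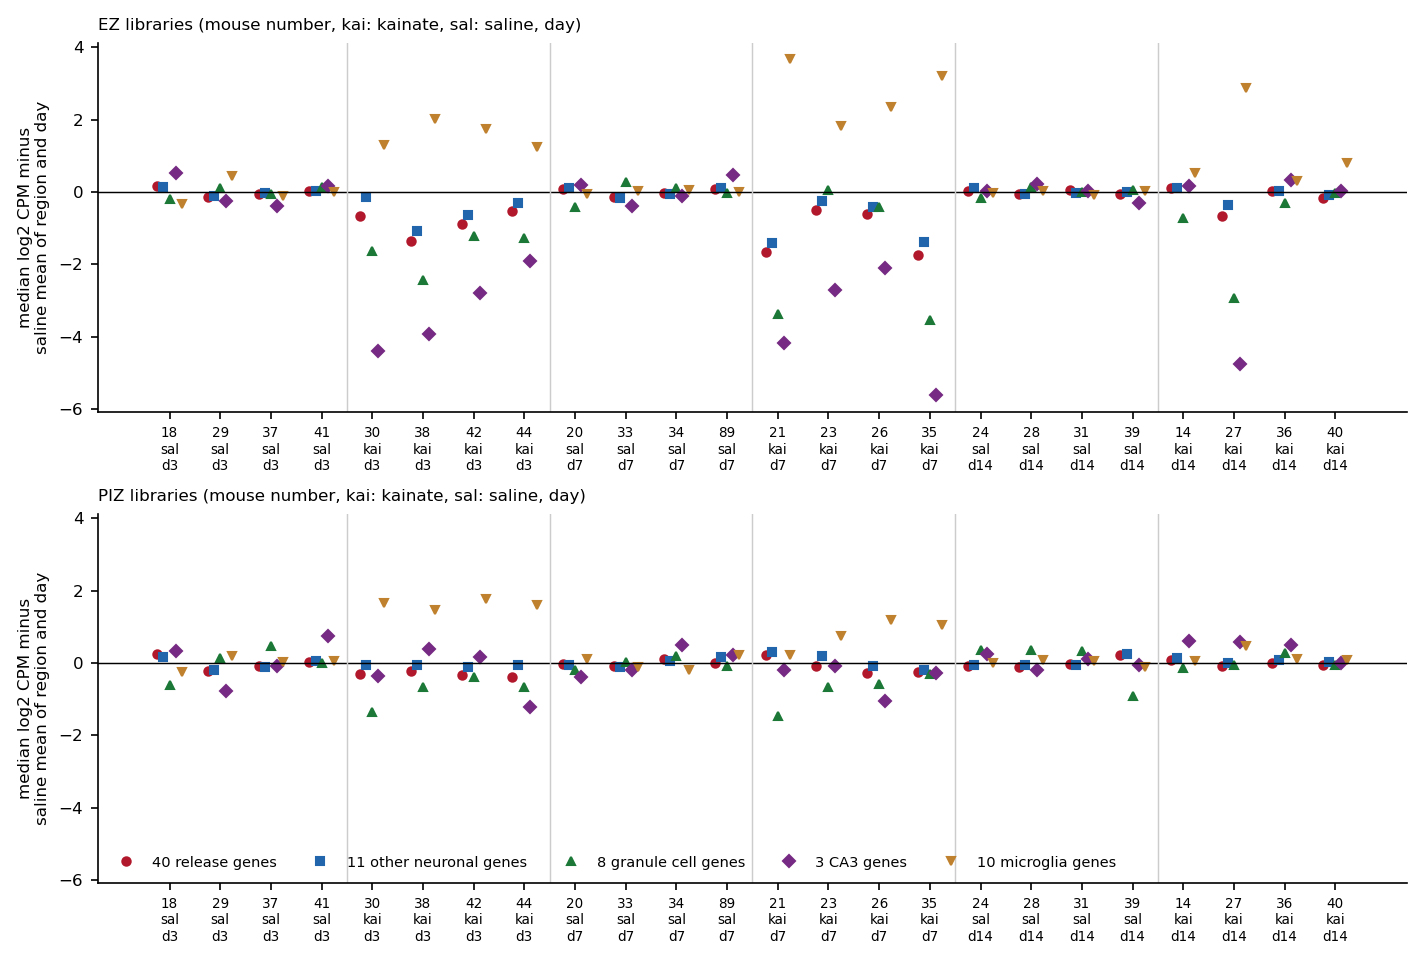
Median deviation of the 40 release genes and of 4 marker lists in every library, in log2 CPM from the saline mean of the same zone and day, with 1 column of points per mouse. In the EZ of kainate mice the release genes (red) range from -1.74 to -0.50 at day 3 and day 7 while microglia markers are above 1, and mouse 27 is the sole day 14 library below -0.5 for the release genes.

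In the PIZ few of the same genes were called. At day 3, 1 of the 40 genes was called lower (Rims1) and 1 higher (Sv2c), while 1.57% of all genes were called lower and 7.12% higher. An unadjusted p under 0.05 was reached by 16 members with lower and 2 with higher levels, among 35.7% of all genes. The median log2 fold change of the members was -0.33 and 36 of 40 values were negative, as were 48.2% of those of all genes. All 4 kainate libraries lay below all saline libraries for 13 of the 40 and for 13.6% of all genes. Sv2c measured 273, 138, 109 and 260.4 CPM in kainate mice 30, 38, 42 and 44 and 37.3, 55.5, 72.5 and 46.1 in saline mice 18, 29, 37 and 41. All kainate libraries were higher, by 3.69-fold (log2 fold change 1.88 ± 0.33, adjusted p = 8.49e-05), and the difference from the effect in the EZ was 0.35 ± 0.46 (adjusted p = 0.708). Rims1 measured 113, 142, 119.9 and 103 CPM in kainate mice and 199.5, 157, 173 and 190.5 in saline mice. The groups did not overlap, and the log2 fold change was -0.59 ± 0.17 (adjusted p = 0.0091), close to both limits of the call. It was lost under 8 of its 14 alternatives, and the number of members called lower at day 3 in the PIZ was between 0 and 5 over all alternatives. Vamp2, Rab3a, Syngr3 and Syt4 also passed the adjusted p, at log2 fold changes of -0.45, -0.58, -0.54 and -0.57 that missed the minimum of 1.5-fold. Microglia markers were higher in these libraries too (10 of 10 called, summed level 1258 to 1538 CPM against 361 to 494), as were 3 of 9 astrocyte markers (summed level 9193 to 10320 CPM against 4941 to 6491), and 2 of 8 granule cell and 1 of 4 CA1 markers were called lower. Slc17a6, at 1.19 to 2.28 CPM in kainate mice, had a value of -1.65 ± 0.51 (adjusted p = 0.0163), which rests on the saline library of mouse 29 named above.

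At day 7 and at day 14 none of the 40 genes was called in the PIZ by edgeR in either direction (0 and 0), nor by DESeq2 or limma-voom. An unadjusted p under 0.05 was reached by 2 of the 40 at each day, beside 14.5% of all genes at day 7 and 6% at day 14. Of all genes 0.0514% were called lower and 0.15% higher at day 7, and 0.00468% and 0.00935% at day 14. The medians of the members were -0.06 and -0.05. The gene with the smallest p was Slc17a6 at day 7 (log2 fold change 1.27 ± 0.50, adjusted p = 0.215), carried by 1 library at 11.7 CPM, and Sv2c at day 14 (0.75 ± 0.32, adjusted p = 0.766). The level of Sv2c in the PIZ at day 14 was higher in kainate than in saline on average, 105 ± 28.4 against 62.5 ± 15.7 CPM (SD, n = 4), with 1 kainate library inside the saline range.

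Whether kainate acted differently in the 2 zones was asked with the difference between its effects. At day 3 no member was called (0 of 40 by edgeR, with 18 at an unadjusted p under 0.05 beside 17.9% of all genes, 1 called by DESeq2, Sv2b, and 23 called by limma-voom with quality weights), and 0.0655% of all genes were. The median difference was -0.57. At day 7, 19 of the 40 were called and all 19 were lower in the EZ, against 9.89% of all genes called in either direction, and all 40 differences were negative, with a median of -0.90. The largest were those of Sv2b (-2.39 ± 0.56, adjusted p = 0.00343) and Rab3c (-2.22 ± 0.46, adjusted p = 0.00203). Rab3c measured 612, 316, 329 and 275 CPM in the PIZ of kainate mice 21, 23, 26 and 35 and 371, 354, 286 and 295 in saline mice 20, 33, 34 and 89, so the EZ alone was low. Cplx1 measured 538, 322, 329 and 271 CPM in the PIZ of the kainate mice and 298, 286, 343 and 335 in saline mice (difference of effects -1.34 ± 0.29, adjusted p = 0.00234). Vamp1 measured 119, 72.0, 77.5 and 80.2 CPM against 90.1, 88.0, 109 and 97.6 there (difference -1.33 ± 0.29, adjusted p = 0.00238). In the PIZ the kainate and saline ranges of these 3 genes overlapped, and mouse 21 was the highest of the 4 kainate mice for each. For the same difference, 4 of the 11 other neuronal genes were called lower and 0 higher (median -0.90), and 0 of 8 granule cell markers were called (median 0.06). Summed microglia levels at day 7 were 2326 to 8832 CPM in kainate and 542 to 605 in saline in the EZ. In the PIZ they were 518 to 1033 and 390 to 496. The part of cell composition was not tested.

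The count of 19 members that differed between zones at day 7 rested on single mice. Leaving out kainate mouse 21 gave 0 of 40, as did leaving out saline mouse 20 or 89, whereas 2 members were called without kainate mouse 35, 6 without saline mouse 33, 7 without saline mouse 34 and, at most, 24 when either kainate mouse 23 or kainate mouse 26 was left out. The values kept their sign throughout: for Rab3c the difference lay between -2.71 and -1.79 over its 15 alternatives, with adjusted p between 1.66e-07 and 0.0276, and for Sv2b between -2.61 and -2.03, with adjusted p between 3.41e-04 and 0.0327. With the mouse as replicate block 18 of the 19 were called, the exception being Rims1. At day 14 no member was called (0 by edgeR, DESeq2 and limma-voom), edgeR called 0% of all genes, and the median difference was -0.13. An unadjusted p under 0.05 was reached by 0 members and by 7.3% of all genes.

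**Figure D5:**
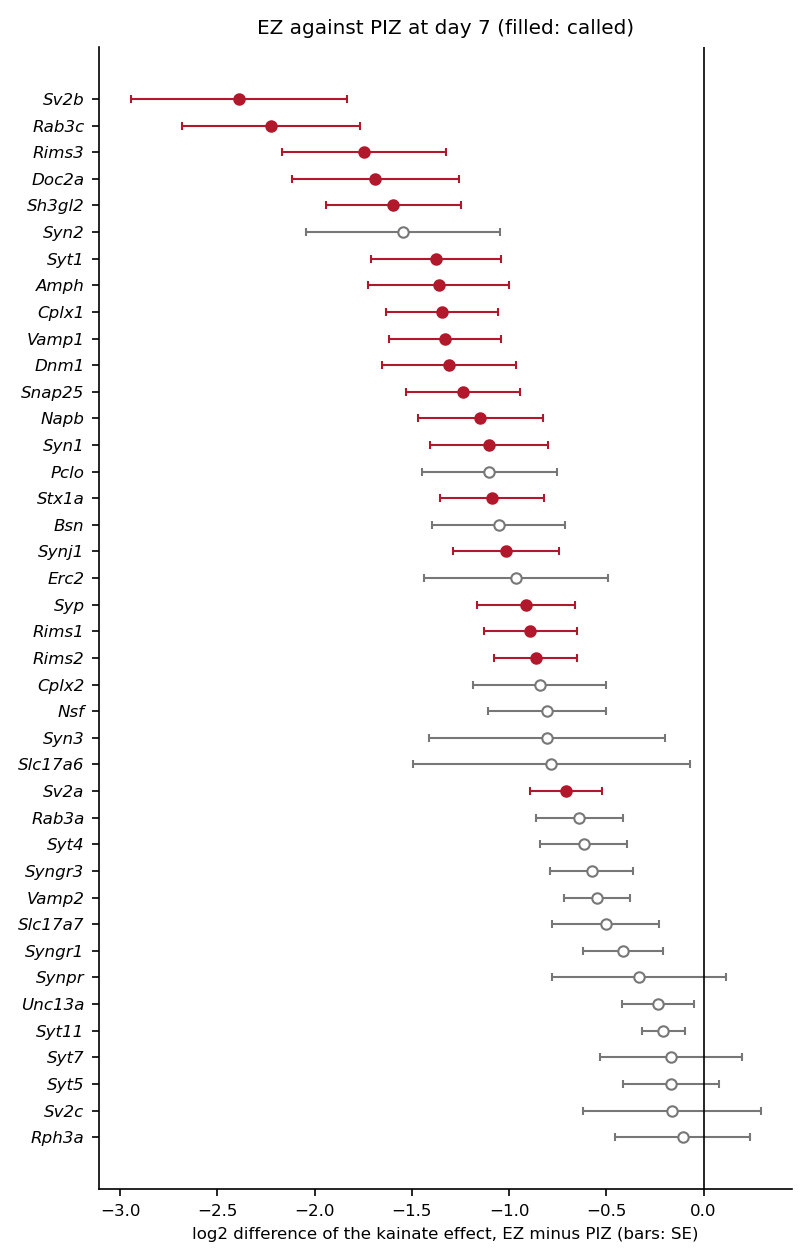
Difference of the kainate effect between EZ and PIZ at day 7 for each of the 40 genes, in log2 units with the SE as bars, filled where called. All 40 values are negative, from -2.39 for Sv2b to -0.11 for Rph3a, and 19 are called.

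From day 3 to day 7 the kainate effect in the EZ did not change to the threshold for any member (0 by edgeR and by DESeq2, 5 by limma-voom, with 2 at an unadjusted p under 0.05 beside 12% of all genes), where 0.145% of all genes were called. At day 14 the EZ held no calls. None of the 40 genes was called there at day 14 (0 by edgeR, DESeq2 and limma-voom, with 1 at an unadjusted p under 0.05, Rims3, beside 18% of all genes), while 0.0374% of all genes were called lower and 2.32% higher, and the median log2 fold change was -0.12. All 4 kainate libraries still lay below all saline libraries for 3 of the 40 genes (Nsf, Rims3 and Unc13a), as for 3.42% of all genes. Nsf, which is named after its values were seen, measured 1017, 603, 975 and 999 CPM in kainate mice 14, 27, 36 and 40 and 1171, 1199, 1151 and 1118 in saline mice 24, 28, 31 and 39. Its kainate libraries lay below its saline libraries in both zones at each of the 3 days, the zones being from the same mice, while edgeR called it in the EZ at day 3 and day 7 only. How many of all genes share this pattern was not counted, so it cannot be read as particular to Nsf. Snap25 measured 1774, 1080, 1769 and 1321 CPM in kainate mice 14, 27, 36 and 40 and 1706, 1640, 1680 and 1409 in saline mice 24, 28, 31 and 39. Mouse 27 was lowest, mice 14 and 36 lay above all saline libraries, and the log2 fold change was -0.12 ± 0.21 (adjusted p = 0.81). The kainate effect on Snap25 was higher at day 14 than at day 7 by 1.41 on the log2 scale (SE 0.29, adjusted p = 0.00952), the sole call among the members, with 0.271% of all genes called. All but 3 of the 40 differences between day 14 and day 7 were positive, their median was 0.81, and 30 had an unadjusted p under 0.05, as had 33.1% of all genes. Over all genes tested, 51.1% of the differences were negative. The median was 0.66 for the 11 other neuronal genes and 0.31 for the 8 granule cell markers, with 0 called in either list. Summed microglia levels in the EZ of kainate mice were 2326 to 8832 CPM at day 7 and 618.5 to 4304 at day 14. In saline mice they were 542 to 605 and 489 to 526.5. The part of cell composition was not tested. The Snap25 call was lost when any of 13 of the 16 mice was left out, with kept direction (log2 values from 1.23 to 1.91 over all alternatives). Without mouse 27, the low library of day 14, 22 members were called, without mouse 23 21 and without mouse 26 13, while DESeq2 called 15 and limma-voom 32.

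Mouse 27 was also low for Syn2 (146 CPM, the other 3 kainate mice being between 520.3 and 664), Syn1 (197, others 364 to 402), Syt1 (472, others 827 to 1268) and Rab3c (98.9, others 172 to 351), but not for Slc17a7 (1148, others 1017 to 1185) or Cplx1 (306, others 242 to 309). Leaving this mouse out left the day 14 count at 0. In the PIZ no member had an effect of kainate that changed from day 3 to day 7 by the test (0 by edgeR, DESeq2 and limma-voom, with 5 at an unadjusted p under 0.05 beside 10.6% of all genes), while 0.0234% of all genes had one.

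Saline injection by itself was examined by comparing the EZ with the PIZ of saline mice over the 3 days together. No member was called (0 by edgeR, DESeq2 and limma-voom, with 4 at an unadjusted p under 0.05), with 0.0234% of all genes called, and the median difference was -0.11. Of all genes 8.9% reached an unadjusted p under 0.05. The values were negative for 33 of the 40 genes and for 50.0% of all genes, and the largest of the 4 was that of Sv2b, at -0.46 ± 0.22 (adjusted p = 0.555).

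A further 52 genes of vesicle release and recycling that are not among the 40 gave a broader view. At day 3 in the EZ 15 were called lower and 3 higher, and at day 7 25 lower and 4 higher, with medians of -0.41 and -0.61. As given above, 8.61% of all genes were called lower and 16.1% higher at day 3, and 11.9% and 20.6% at day 7, so the genes called higher were a smaller share of the 52 than of all genes. The smallest p among those lower at day 3 belonged to Slc17a8, the transporter VGLUT3 (log2 fold change -3.40 ± 0.51, adjusted p = 2.19e-06), and Rab3b (-1.58 ± 0.24, adjusted p = 2.96e-06). Slc17a8 was at a low level, with a mean of 3.85 TPM in saline libraries and 1 to 189 counts over all libraries. At day 7 the smallest p belonged to Ppfia3, a liprin of the active zone (-1.01 ± 0.15, adjusted p = 6.82e-07), and Syt2, a fast calcium sensor (-2.06 ± 0.31, adjusted p = 9.73e-07). The genes that rose were Cltb, a clathrin light chain (0.99 ± 0.11, adjusted p = 3.24e-08 at day 3), Syngr2 (1.70 ± 0.31, adjusted p = 2.76e-05), Dnm2, the widely expressed dynamin (0.65 ± 0.17, adjusted p = 0.00166), and, called at day 7 and not at day 3, Syt9 (2.25 ± 0.53, adjusted p = 4.80e-04). Dnm2 at day 3 and Syt9 lie outside the naming rule and are given to complete the count. At day 7 Syngr2 had a log2 fold change of 2.70 and Dnm2 one of 1.16. In the neuronal paralogs among the 40, Syngr1 and Syngr3 had values of -0.44 and -0.78 and Dnm1 one of -1.46 at that day. In the PIZ at day 3 the median of the 52 was -0.20.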

How the data were processed

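RNA of the dorsal dentate gyrus was sequenced as stranded poly(A)-selected libraries. Per the submitters' processing notes and the methods, the authors trimmed reads with fastp 0.20.1, aligned them to GRCm39 with HISAT2 2.2.1 and deposited raw counts per gene from featureCounts (Subread 1.6.4, Gencode annotation), with reads of several alignments counted at their primary alignment, so paralogs can share reads. Symbols and positions were matched for 98.9% of the genes. Groups came from the sample labels. The counts were fitted with edgeR 4.0.16 (quasi-likelihood, R 4.3.3) over all 48 libraries as 12 group means, after a filter on low counts and TMM scaling, with Benjamini-Hochberg adjustment over 21390 genes. The SE is the log2 fold change over the root of F. TPM were computed here from counts and the length of all annotated exons of a gene, not of the transcripts expressed. Both zones of a mouse come from the same animal, and their residuals correlated by -0.05 to 0.38 over the 24 mice, so the mouse was used as replicate block in an alternative. Other alternatives were DESeq2 1.42.0, limma-voom (limma 3.58.1), other scaling, filters and thresholds, and each mouse left out. Mice within a group are separate animals. The depth limits genes of low count such as Slc17a6 and Doc2a.

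The members and lists were chosen with earlier results of these data known. Levels in every library are given for the most significant member of each role in the EZ at day 3 and at day 7, for members called in the PIZ, and for the 3 of smallest p in a difference of effects. Of the 52 further genes, the 2 of smallest p per direction in the EZ at day 3 and day 7 were named. Sv2a was plotted beside its paralogs after its values were seen. The fit was tested on simulated data.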

Additional observations from a re-analysis of the deposited data

Results flagged for a closer look

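In 10 of 168 groups of 4 libraries examined, 1 library lay apart from the other 3 by more than the 95% critical value of Dixon's ratio, which chance gives in about 1 in 20 groups. In the EZ of kainate mouse 27 at day 14, Syn2 was at 146 CPM (others 520.3 to 664) and Syn1 at 197 (others 364 to 402). In the PIZ of saline mouse 39 at day 14, where granule cell markers were also low, Sv2b was at 637 CPM (others 269 to 299.6), Stx1a at 82.6 (others 52.6 to 55.0), Syt1 at 1652 (others 1229 to 1256) and Rab3c at 684 (others 327 to 354). The EZ library of the same mouse had Rims1 at 119 CPM (others 159 to 162). The remaining 3 were Slc17a7 in the EZ of saline mouse 31 at day 14 (1141 CPM, others 1015 to 1030), Cplx1 in the EZ of kainate mouse 40 at day 14 (242, others 300.3 to 309) and Cplx1 in the EZ of saline mouse 33 at day 7 (259, others 316 to 326).

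The effect of kainate differed between contexts, by a test of the difference itself in edgeR, in 20 cases. For 19 genes it was lower in the EZ than in the PIZ at day 7, with log2 differences of -2.39 for Sv2b, -2.22 for Rab3c, -1.75 for Rims3, -1.69 for Doc2a, -1.59 for Sh3gl2, -1.38 for Syt1, -1.36 for Amph, -1.34 for Cplx1, -1.33 for Vamp1 and -1.31 for Dnm1. Smaller ones were those of Snap25 (-1.24), Napb (-1.15), Syn1 (-1.10), Stx1a (-1.09), Synj1 (-1.02), Syp (-0.91), Rims1 (-0.89), Rims2 (-0.86) and Sv2a (-0.71). Snap25 differed between day 14 and day 7 in the EZ by 1.41. The 19 calls were 0 in number without kainate mouse 21.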

How the results depend on the processing

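Over 19 counts of members called, 287 of 336 alternative values were within 1.5 times of the reported one, and 12 counts never left that range. All 12 were counts of 0 or 1 that kept their value, and 0 against 0 was scored as within the range. The tally is therefore no measure of how stable the larger counts were. The counts lower in the EZ left the range, going from 28 down to 17 at day 3 and from 29 down to 13 at day 7. Of 522 alternative values of 36 named differences 431 kept their call, 91 kept the direction and lost the call, and 0 reversed. Only differences called in the main fit entered, and they were refitted on the same or mostly the same libraries. A reversal was therefore unlikely from the start, and its absence is no support. With only the groups compared in the model, the count lower in the EZ at day 7 was 13, that lower in the PIZ at day 3 was 4, that of differing zones at day 7 was 5 and that between day 14 and day 7 was 0. With limma-voom these were 35, 3, 31 and 32, with 23 for the zones at day 3 and 5 between day 7 and day 3. With DESeq2, 3 were lower in the PIZ at day 3, 1 differed between zones at day 3 and 15 between day 14 and day 7. At an adjusted p under 0.05 the counts were 4 (PIZ day 3), 1 (zones, day 3), 1 (day 7 against day 3) and 21 (day 14 against day 7). Lower genes in the PIZ at day 3 numbered 5 with no minimum fold change, 2 with RLE size factors or no filter on low counts, and 0 with library size only. Between day 14 and day 7 the count was 3 with library size only and 0 with no filter. With scaling by library size only, the median log2 fold change of all genes was 0.16 in place of 0.03 in the EZ at day 3, where that of the members was -0.69, and 0.11 in place of 0.02 in the PIZ at day 3. With the mouse as replicate block the zones differed at day 7 for 18 members, without Rims1 (-0.92), and no other call of a comparison between zones changed.

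Leaving out 1 mouse at a time gave 17 (without kainate mouse 38) to 30 lower members in the EZ at day 3, 26 to 33 at day 7, 0 (without kainate mouse 44) to 3 (without saline mouse 29) in the PIZ at day 3, 0 to 1 for the zones at day 3 (1 without kainate mouse 44), 0 to 24 for the zones at day 7, 0 to 1 between day 7 and day 3 (1 without kainate mouse 23) and 0 to 22 between day 14 and day 7. The causes were not tested.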
